A study of Mus musculus with 54 samples.

Results

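Mouse embryonic stem cells carrying an empty PiggyBac vector (EV) were set against cells of the same series carrying a PiggyBac Ezh2 transgene (WT), after 1 day in differentiation medium with retinoic acid. The comparison took every library labelled EV or WT at day 1 in the Ezh2 series, 3 of each, which is 6 of the 27 libraries of that series and of 54 in all. The EV libraries came from the line mESC-EV, genotype Ezh1-/-:Ezh2-/-;PiggyBac-empty, and the WT libraries from the line mESC-WT, genotype Ezh1-/-:Ezh2-/-;PiggyBac-Ezh2. Both lines are thus labelled as lacking the 2 catalytic subunit genes of Polycomb repressive complex 2 (PRC2) and differ by label only in what the vector carries. Their parental cells are of 129P2/Ola origin. Before day 1, at day 0, the cells grew with the cytokine LIF at 1000 U/mL, the GSK3 inhibitor CHIR99021 at 3 µM and the MEK inhibitor PD0325901 at 1 µM. For day 1 and day 4 these were withdrawn and 0.1 µM retinoic acid was added. The EV and WT libraries of days 0 and 4 (3 of each at each day) and those of a second, Suz12 series at day 1 (line genotypes SUZ12-/-;PiggyBac-empty and SUZ12-/-;PiggyBac-SUZ12, 3 of each) were used to place the day 1 values. The labels name 1 line per genotype, and say neither whether it is a clone nor what drives the transgene, nor whether the 3 libraries of a group were separate cultures. The p-values therefore measure only the spread between these libraries, which may be technical.

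PRC2 places methyl groups on lysine 27 of histone H3, the mark under which genes for developmental regulators are held silent in embryonic stem cells. EZH2 and EZH1 are its alternative catalytic subunits, and EED and SUZ12 its shared core. When stem cells leave LIF and the 2 inhibitors they pass from a naive to a formative state, and retinoic acid, which binds nuclear receptors, turns them towards neural or endodermal fates. A further programme met below is the one driven by ATF4, a transcription factor produced under shortage of amino acids or stress in protein folding, which binds with C/EBP partners and turns on amino acid synthesis, amino acid transport and tRNA charging.

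RNA was measured with QuantSeq 3′ libraries, which give 1 tag near the 3′ end of each transcript, so a count is not scaled by gene length and levels are compared here between libraries, not between genes. The EV libraries held 4516898 to 4660730 counts on genes and the WT libraries 4611400 to 4697290. At this depth 3 counts over a group correspond to 0.233 CPM (normalised counts, scaled to a common library total) in EV and 0.221 CPM in WT, and this floor bounds a fold where a whole group had no count. Levels below are CPM after TMM scaling. Changes are log2 EV minus WT from edgeR's two-sided quasi-likelihood test fitted over the 27 libraries. After ± comes a standard error, worked out as the size of the change divided by the root of the test's F statistic. A gene is called where the Benjamini-Hochberg adjusted p over all 14086 genes tested is under 0.05. In whole cultures fewer cells of a type and less RNA per cell cannot be told apart. EV replicate 3 stood further from its group than any other library: the chi-square per degree of freedom of its counts was 7.07 against EV replicate 1 and 10.2 against EV replicate 2, beside 3.54 between those 2 and 2.95 to 4.62 between WT libraries.

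The genes of the labelled genotype were looked at first, and the lines differed in Ezh1. Ezh1 had 5.15, 6.55 and 7.42 CPM in EV and no count in any WT library, which is at least 28.8-fold higher in EV, although both lines are labelled as lacking it. The difference was there on day 0 (9.29 ± 1.58 CPM in EV, 0.148 ± 0.257 CPM in WT) and day 4 (5.58 ± 0.349 CPM in EV, 0.2 ± 0.203 CPM in WT). Here and below, ± after a mean in CPM gives the SD over the libraries of the group, not a standard error. Ezh2 itself had 196, 183 and 196 CPM in EV, against 234, 233 and 227 CPM in WT. These did not overlap and the adjusted p was 0.0645. Ezh2 was called lower in EV under DESeq2, with RLE scaling, with only the 6 compared libraries and without WT replicate 3. Ezh2 differed the other way on day 0 (184 ± 16.9 CPM in EV, 88.3 ± 0.66 CPM in WT) and on day 4 (128 ± 22.6 CPM in EV, 33.1 ± 2.75 CPM in WT). A 3′ tag does not show which exons were deleted or whether a transcript came from the transgene. The counts of Ezh1 and Ezh2 therefore do not check either deletion, and the Ezh1 counts show only that the lines differ. Other genes, outside PRC2, separated the lines as well. Hprt, a purine salvage enzyme often used as a selection locus, had 30.4, 35.2 and 28 CPM in EV, against 1.57, 1.08 and 0.897 CPM in WT. The Y-linked demethylase gene Kdm5d had 2.11, 1.58 and 2.63 CPM in EV, against 0.225, 0 and 0 CPM in WT. The Y-linked genes Ddx3y, Eif2s3y and Uty were not called. Whole chromosomes were shifted too. On day 1 the median log2 change was -0.25 over 721 genes of chromosome 6 and -0.11 over 744 genes of chromosome 8. It was 0.25 over 491 genes of the X chromosome, against 0.07 over all genes tested. On day 0 the medians of chromosomes 6, 8 and X were -0.27, -0.06 and 0.14, against 0.04 over all genes. On day 4 they were -0.33, -0.11 and 0.07, against 0.01, so the X shift was smaller on the other days. What follows compares libraries labelled EV with libraries labelled WT. The part of the transgene cannot be told apart from that of any other difference between the lines.

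The promoters shown here are those of ATF4 target genes that were among the most reduced in EV, and they are printed because the same short letters recur in them. RefSeq promoter windows of the GRCm38.p6 assembly run from 250 bases before the annotated start to 50 after it, and are given 5′ to 3′ on the gene's strand, with the C/EBP-ATF response element searched for, TGATGNAA or its reverse complement TTNCATCA, in capitals. Trib3 is at chr2:152344011-152344310 (minus strand), Chac1 at chr2:119350992-119351291 (plus), Slc7a11 at chr3:50443564-50443863 (minus), Nupr1 at chr7:126625421-126625720 (minus), Pck2 at chr14:55540016-55540315 (plus) and Vldlr at chr19:27216770-27217069 (plus).
Trib3: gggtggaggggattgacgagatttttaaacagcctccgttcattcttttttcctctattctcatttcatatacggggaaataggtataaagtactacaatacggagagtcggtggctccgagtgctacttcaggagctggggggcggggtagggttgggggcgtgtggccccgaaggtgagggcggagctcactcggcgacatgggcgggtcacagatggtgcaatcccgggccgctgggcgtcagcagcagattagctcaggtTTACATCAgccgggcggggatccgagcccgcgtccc
Chac1: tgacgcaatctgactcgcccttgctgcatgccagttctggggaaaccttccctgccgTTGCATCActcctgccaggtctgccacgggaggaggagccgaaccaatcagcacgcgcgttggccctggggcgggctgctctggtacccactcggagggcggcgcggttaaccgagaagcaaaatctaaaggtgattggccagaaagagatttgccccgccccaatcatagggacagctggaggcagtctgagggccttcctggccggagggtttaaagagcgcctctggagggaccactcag
Slc7a11: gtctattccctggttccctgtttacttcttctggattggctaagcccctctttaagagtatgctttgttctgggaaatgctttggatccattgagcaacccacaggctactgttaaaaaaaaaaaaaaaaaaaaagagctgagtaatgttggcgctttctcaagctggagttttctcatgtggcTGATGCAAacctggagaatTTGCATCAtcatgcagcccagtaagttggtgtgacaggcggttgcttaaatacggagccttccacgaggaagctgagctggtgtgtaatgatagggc
Nupr1: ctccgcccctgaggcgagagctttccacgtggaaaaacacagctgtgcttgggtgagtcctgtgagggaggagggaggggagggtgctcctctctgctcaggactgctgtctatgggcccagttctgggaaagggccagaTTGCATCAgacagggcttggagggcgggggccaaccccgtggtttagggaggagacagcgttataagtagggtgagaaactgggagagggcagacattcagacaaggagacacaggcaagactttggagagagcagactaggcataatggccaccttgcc
Pck2: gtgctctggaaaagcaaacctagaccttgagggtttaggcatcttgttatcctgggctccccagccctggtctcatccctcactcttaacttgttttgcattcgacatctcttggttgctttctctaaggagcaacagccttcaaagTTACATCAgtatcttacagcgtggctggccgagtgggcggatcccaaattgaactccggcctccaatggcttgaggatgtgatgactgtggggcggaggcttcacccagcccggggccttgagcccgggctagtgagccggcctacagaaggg
Vldlr: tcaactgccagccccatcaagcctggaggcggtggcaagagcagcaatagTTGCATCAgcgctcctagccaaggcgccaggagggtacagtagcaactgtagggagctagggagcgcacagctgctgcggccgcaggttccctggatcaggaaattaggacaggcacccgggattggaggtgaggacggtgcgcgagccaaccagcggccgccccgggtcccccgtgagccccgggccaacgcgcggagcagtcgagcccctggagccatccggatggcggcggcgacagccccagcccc

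The element was found in 2.85% of the promoters of tested genes (292 of 10251 with a window in the table), in 7.16% of those of genes called lower in EV (58 of 810) and in 2.85% of those of genes called higher (39 of 1370). Of the listed ATF4 targets that were called lower and had a window, 15 of 37 (40.5%) held it. This is near the share of the whole list, 16 of 41 (39.0%). These 15 are among the 58 above. The list was drawn up as ATF4 target and stress genes, so its share is a description and no test of the calls. A match describes the letters of the window and does not show binding.

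After 1 day 2937 of 14086 genes (20.9%) were called, 1861 higher in EV (13.2%) and 1076 lower (7.64%). With only the 6 compared libraries the split was 1553 higher and 1408 lower. The higher calls were larger than the lower ones: 592 were over 4-fold and 83 had no WT count, whereas 94 of the lower calls were over 4-fold and 7 had no EV count. The median called change was 1.38 among higher and -0.75 among lower genes. Leaving out 1 library at a time gave 2188 to 2757 calls. The authors' deposited table of day 1 genes lists 882 symbols as up and 288 as down, and of those 790 (89.6%) were called higher and 272 (94.4%) lower here, with none called in the opposite direction.

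**Figure D1:**
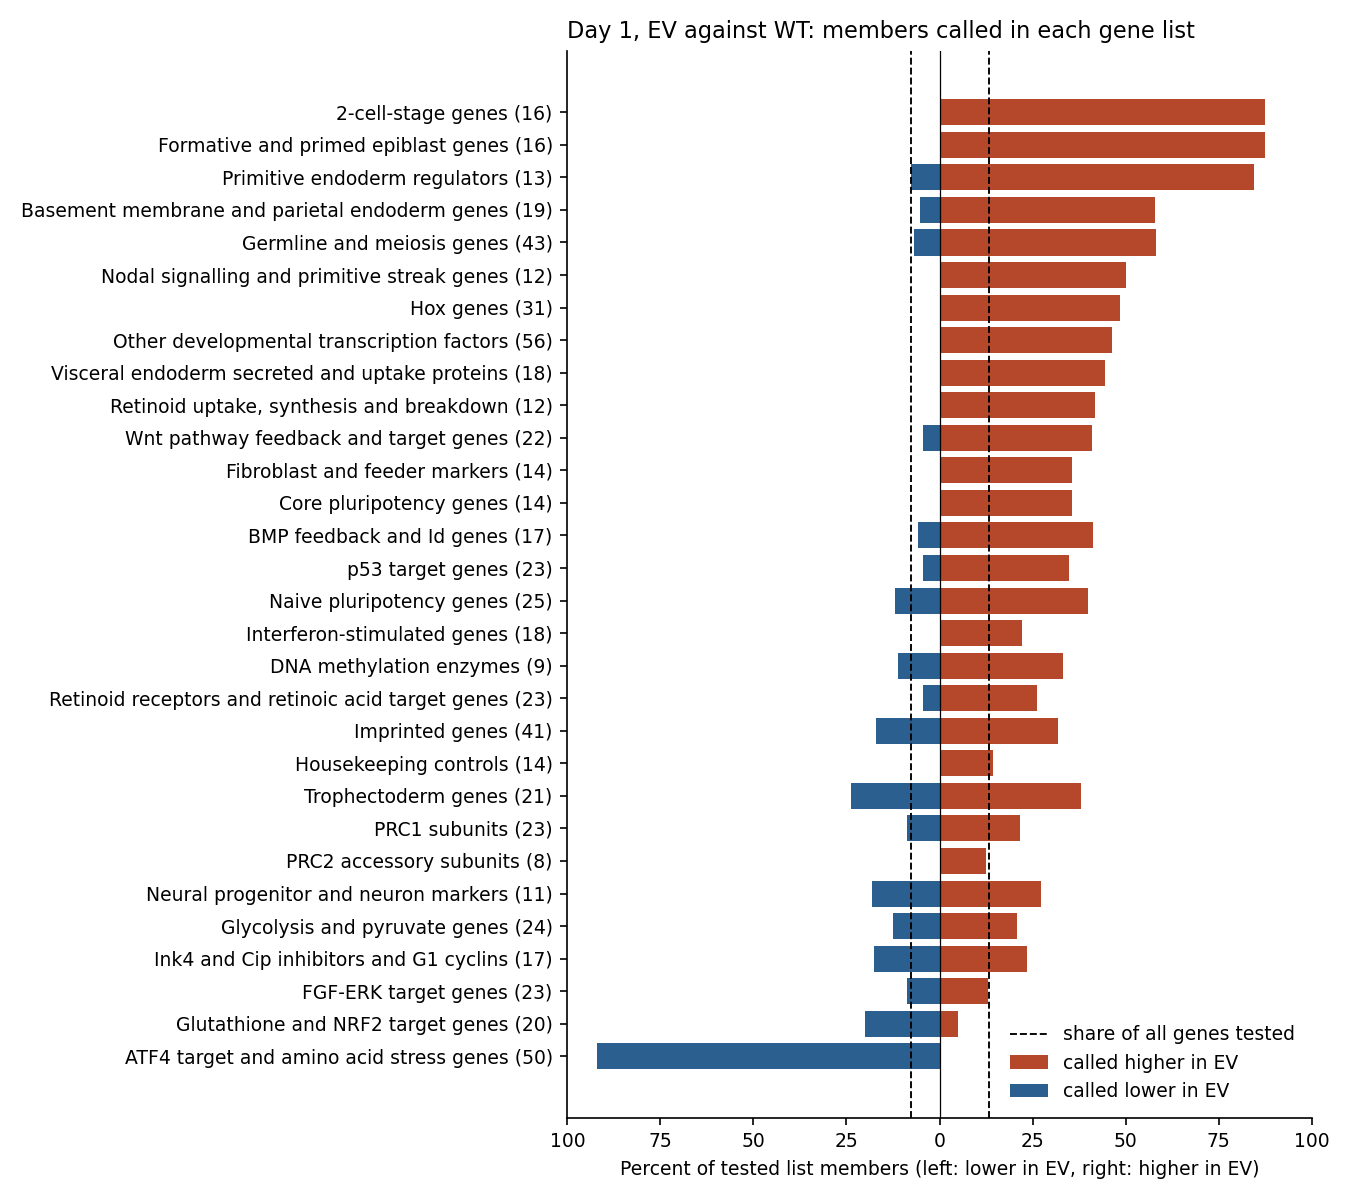
Share of the tested members of each gene list that was called higher in EV (right, red) or lower in EV (left, blue) on day 1, with the number of tested members in brackets; the dashed lines are the shares of all tested genes, 13.2% higher and 7.64% lower. The ATF4 list lies wholly on the lower side (92.0%), and the 2-cell-stage and formative lists on the higher side (87.5% each).

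Genes of the ATF4 programme were lower in EV. Of 52 listed genes 50 were tested, and 46 were called lower and 0 higher, beside 7.64% lower among all genes; the median change was -1.80, beside 0.07 over all genes. In 47 the libraries did not overlap, EV below WT, beside 14.7% of all genes. The called changes ran from -0.67 to -6.17, and the count was 46 or 47 under every alternative listed below. The 4 members not called were the amino acid transporter genes Slc7a3, Slc7a5 and Slc38a2 and the tRNA exporter gene Xpot. Fgf21 and Slc6a9 were too low to test.

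Among the transcription factors and stress regulators, 13 of 13 tested were lower, with a median of -1.92. Atf4 had 286, 288 and 318 CPM in EV, against 839, 764 and 885 CPM in WT (log2 change -1.48 ± 0.13, adjusted p = 1.36e-10). Atf5, a close relative that is induced by the same signals, had 27.9, 21.5 and 35.7 CPM in EV, against 104, 80.6 and 138 CPM in WT (log2 change -1.92 ± 0.27). Cebpb, a C/EBP partner of ATF4, changed by -2.91 ± 0.34 and Atf3, a stress-induced factor, by -2.96 ± 0.28. Trib3, a pseudokinase that feeds back on ATF4 and on AKT, had 6.55, 4.07 and 8.38 CPM in EV, against 114, 108 and 117 CPM in WT (log2 change -4.16 ± 0.17, adjusted p = 1.84e-18). Chac1, which degrades glutathione, had 3.51, 4.29 and 5.03 CPM in EV, against 100, 84.2 and 66.4 CPM in WT (log2 change -4.28 ± 0.27). Nupr1, a small stress-induced chromatin protein, had 3.74, 4.75 and 7.18 CPM in EV, against 80.5, 79.9 and 92.4 CPM in WT (log2 change -4.01 ± 0.20). Their EV and WT libraries were far apart. Ddit4, an inhibitor of mTORC1, had 22, 17.9 and 25.1 CPM in EV, against 108, 116 and 123 CPM in WT (log2 change -2.42 ± 0.13). Ddit3, which encodes the stress factor CHOP, was low in both lines, with 2.11, 1.36 and 3.59 CPM in EV, against 4.5, 7.54 and 5.61 CPM in WT (log2 change -1.33 ± 0.32). The smallest changes in this class were those of Sesn2, a leucine sensor, at -0.67 ± 0.17, and Cebpg, another C/EBP partner, at -0.7 ± 0.19.

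All 13 tested genes of amino acid and one-carbon synthesis were lower, with a median of -2.03. Pck2, the mitochondrial phosphoenolpyruvate carboxykinase, had 19.9, 18.1 and 25.1 CPM in EV, against 247, 242 and 257 CPM in WT (log2 change -3.56 ± 0.12, adjusted p = 9.64e-21). Mthfd2, a mitochondrial folate enzyme, had 92.2, 92.4 and 94.8 CPM in EV, against 540.2, 516 and 507 CPM in WT (log2 change -2.48 ± 0.10). Within each line these values hardly varied, and the lines did not overlap. The serine pathway was lower at each step. Phgdh had 6.79, 14.5 and 9.57 CPM in EV, against 43.2, 43.5 and 17.7 CPM in WT (log2 change -1.75 ± 0.44). Psat1 had 98.8, 102 and 111 CPM in EV, against 402, 398 and 404 CPM in WT (log2 change -1.95 ± 0.12). Psph changed by -2.47 ± 0.26 and Shmt2, which passes serine's carbon to folate, by -2.03 ± 0.16. Asparagine synthetase, Asns, had 294, 292 and 309 CPM in EV, against 874, 870.5 and 919 CPM in WT (log2 change -1.57 ± 0.10). Aldh1l2, a mitochondrial folate dehydrogenase, changed by -3.23 ± 0.26, the proline enzyme gene Pycr1 by -2.34 ± 0.17 and the alanine transaminase gene Gpt2 by -2.23 ± 0.17.

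Of 8 tested amino acid transporter genes 5 were lower. Slc7a11, the cystine-glutamate exchanger, had 0.234, 0.226 and 0.718 CPM in EV, against 26.1, 34.7 and 28.7 CPM in WT (log2 change -6.17 ± 0.36, adjusted p = 7.7e-15), the largest fall of the list. Slc1a4, a neutral amino acid carrier, had 3.74, 6.78 and 4.55 CPM in EV, against 57.8, 48.5 and 50.7 CPM in WT (log2 change -3.37 ± 0.20). Slc1a5, a glutamine carrier, changed by -2.0 ± 0.13, Slc7a1, an arginine carrier, by -1.44 ± 0.09, and Slc3a2, the heavy chain shared by several exchangers, by -1.02 ± 0.25. In contrast Slc7a3, another arginine carrier, had 251, 264 and 175 CPM in EV, against 231, 291 and 216 CPM in WT, and these values overlapped.

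Genes for aminoacyl-tRNA synthetases, which load amino acids onto tRNAs, were counted with the exporter gene Xpot: 12 of these 13 were lower, Xpot was not called, and in all 13 the libraries did not overlap. Their median was -1.38, beside -1.23 over the transporter genes, and the largest change was -1.96. Nars, for asparagine, had 384, 378 and 424 CPM in EV, against 1597, 1454 and 1564 CPM in WT (log2 change -1.96 ± 0.09, adjusted p = 8.92e-17). Gars, for glycine, had 253, 216 and 284 CPM in EV, against 888, 887 and 987 CPM in WT (log2 change -1.88 ± 0.11). Cars changed by -1.92 ± 0.11, Aars by -1.58 ± 0.13, Sars by -1.54 ± 0.13, Tars by -0.82 ± 0.11 and Eprs by -0.73 ± 0.10. Asns and Gars lie on chromosome 6, whose genes were lower as a whole, and their changes were larger than that chromosome's median of -0.25. The 3 tested genes for secreted proteins and receptors were lower, with a median of -3.81, the largest fall among the medians of these classes. Vldlr, a lipoprotein receptor, had 0.936, 1.81 and 0.479 CPM in EV, against 27, 29.3 and 23.6 CPM in WT (log2 change -4.58 ± 0.26). Gdf15, a stress hormone, had 3.04, 2.49 and 5.74 CPM in EV, against 51.9, 53 and 52.7 CPM in WT (log2 change -3.81 ± 0.23). Stc2, a secreted stanniocalcin, had 2.34, 3.62 and 3.83 CPM in EV, against 28.6, 33 and 26 CPM in WT (log2 change -3.15 ± 0.20).

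**Figure D2:**
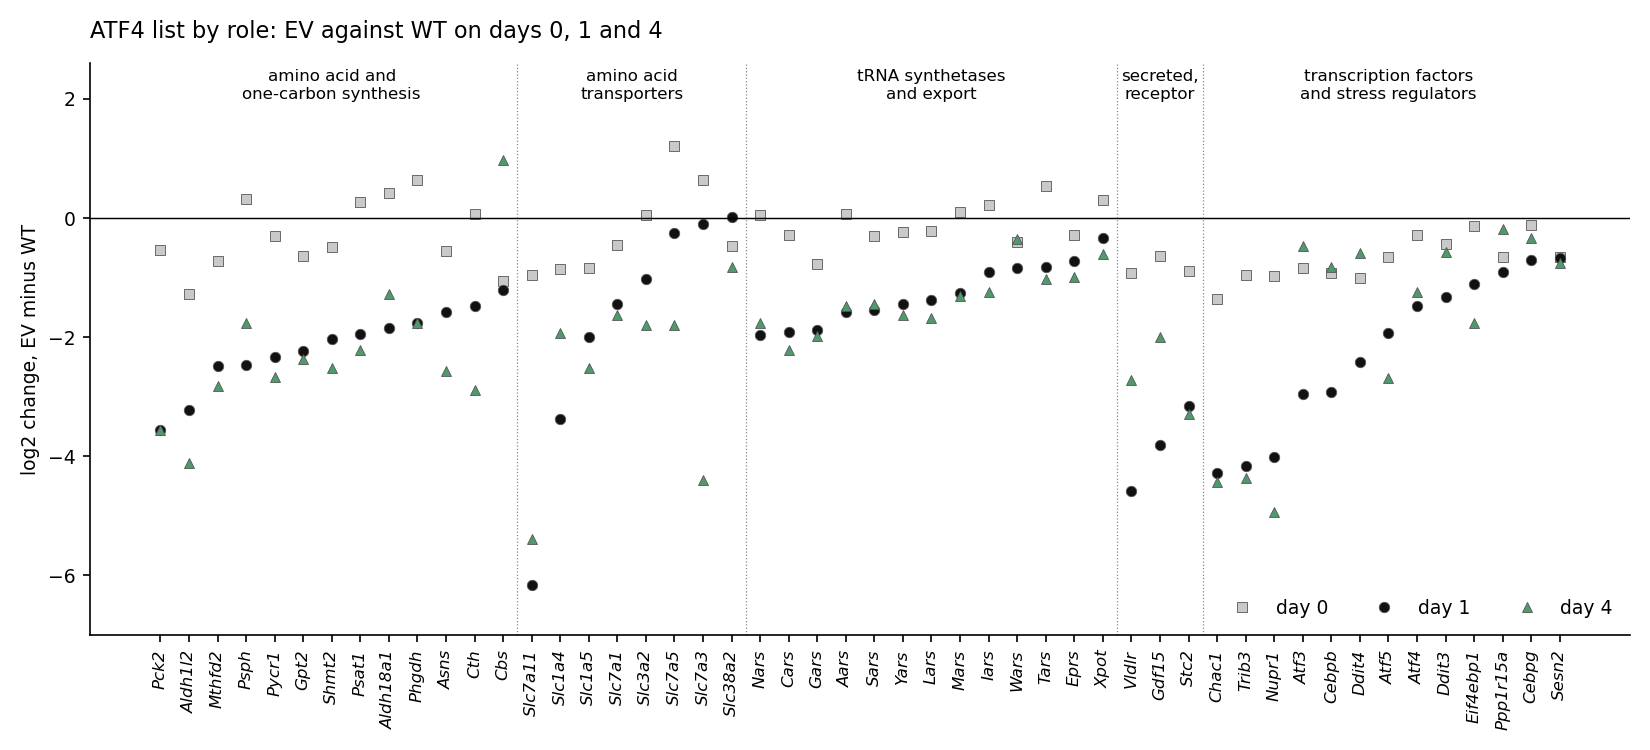
Log2 change, EV minus WT, of each tested ATF4 list member on day 0 (squares), day 1 (circles) and day 4 (triangles), grouped by role and ordered by day 1. On day 1 the points of 46 members lie below 0 and were called, while the day 0 points lie nearer to 0, with a median of -0.45 against -1.80 on day 1.

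This difference was smaller before retinoic acid. On day 0, where 12.4% of genes were lower and 16.8% higher, 28 list members were lower and 2 higher, with a median of -0.45, and on day 4, where 8.20% were lower and 9.62% higher, 44 were lower and 0 higher, with a median of -1.76. The test of the day 1 change against the day 0 change, which called 2.09% of all genes more negative on day 1 and 2.26% more positive, called 37 members more negative and 0 more positive. The biosynthesis genes made up 12 of these and the synthetase and export genes 10. Psat1 had 435 ± 63.1 CPM in EV against 361 ± 44.9 CPM in WT on day 0 (SD, n = 3 each), and Nars 1329 ± 38.2 CPM in EV against 1285 ± 31.1 CPM in WT. Neither was called on day 0 (adjusted p = 0.0843 for Psat1 and 0.731 for Nars). Tars was higher in EV on day 0, with 470.4 ± 58.8 CPM in EV against 325 ± 24 CPM in WT.

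Within each line, day 1 was also set against day 0. These values share the day 1 libraries with the comparison above, so they are given side by side as a description. In EV 41 of the 50 members were lower on day 1 than on day 0 and 1 was higher, with a median of -1.66, where 23.0% of all genes were lower and 23.7% higher. In WT 25 were lower and 8 higher, with a median of -0.27, where 24.2% were lower and 22.3% higher. The roles differed in this. The transcription factors and regulators were lower on day 1 in both lines, 11 of 13 in EV and 11 of 13 in WT, with medians of -2.78 in EV and -0.72 in WT. The synthesis enzymes had a median of -1.90 in EV and 0.17 in WT, and the synthetases -1.27 in EV and 0.02 in WT. Atf4 itself fell by 1.70 in EV and by 0.50 in WT on the log2 scale, and Pck2 by 2.86 in EV while it changed by 0.17 in WT.

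**Figure D3:**
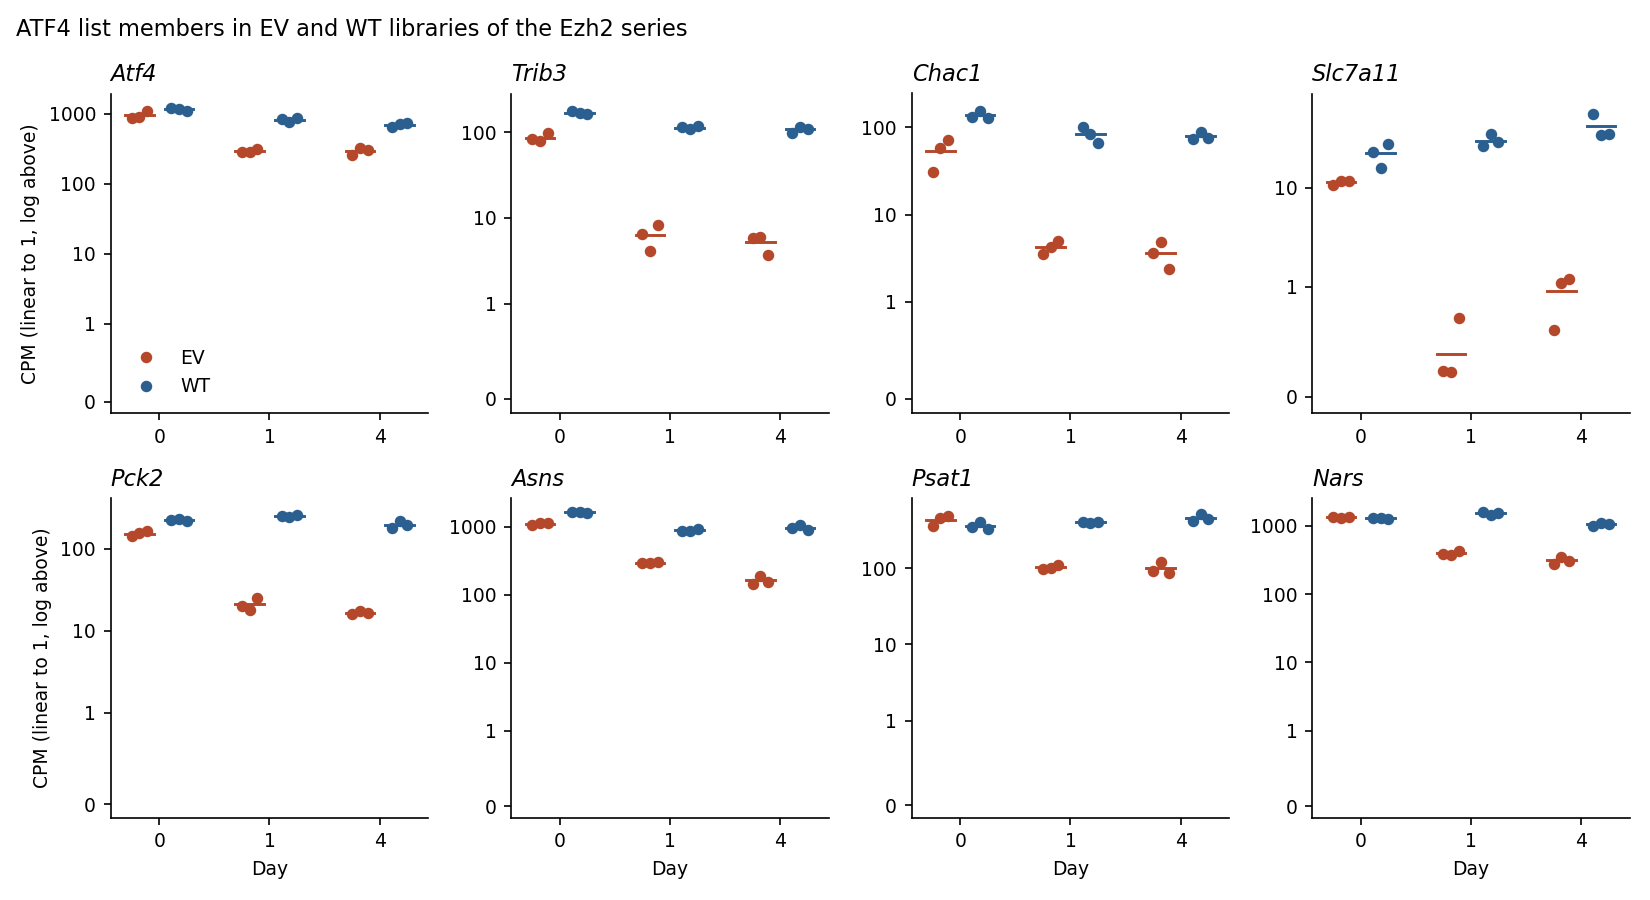
CPM of 8 ATF4 list members in each EV (red) and WT (blue) library of the Ezh2 series by day, 1 point per library with a bar at the group mean, on an axis that is linear to 1 CPM and logarithmic above. EV points drop between day 0 and day 1 and stay low on day 4, and WT points move less.

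Several of the largest falls outside that list were in genes close to the same programme or without a set role in it. Inhbe, an activin subunit best known from liver, had 0, 0 and 0.239 CPM in EV, against 13.7, 14 and 16.1 CPM in WT (log2 change -7.13 ± 0.59, adjusted p = 3.47e-11). Mef2b, a transcription factor of the MEF2 family, had 1.4, 1.81 and 1.44 CPM in EV, against 63.6, 49.1 and 42.8 CPM in WT (log2 change -5.04 ± 0.28). Creb5, a CREB family factor, had 1.64, 2.03 and 1.44 CPM in EV, against 21.8, 25.4 and 25.8 CPM in WT (log2 change -3.81 ± 0.32) and was not called on day 0 (18.5 ± 1.75 CPM in EV, 15.4 ± 7.23 CPM in WT). Hrk, a BH3-only activator of apoptosis, had 1.17, 1.58 and 1.2 CPM in EV, against 19.3, 23.5 and 24.2 CPM in WT (log2 change -4.05 ± 0.25). P2rx3, an ATP-gated channel, had 0, 0.678 and 0.239 CPM in EV, against 7.87, 8.4 and 6.5 CPM in WT. Serpinf1, a secreted serpin, had 0, 0.452 and 0.239 CPM in EV, against 4.5, 6.68 and 4.26 CPM in WT. Mst1, a secreted hepatocyte growth factor-like protein, changed by -4.14 ± 0.46. In each of these 7 genes the highest EV library lay below the lowest WT library. Of 20 tested glutathione and NRF2 target genes, which answer oxidative stress, 4 were lower and 1 higher (0 higher without EV replicate 1 or WT replicate 2). These are 20.0% and 5.0% of the list, beside 7.64% lower and 13.2% higher among all genes, and the median was -0.15. The haem oxygenase gene Hmox1 (log2 change -0.97 ± 0.26), the sulfiredoxin gene Srxn1 (log2 change -0.79 ± 0.13) and the glutathione synthetase gene Gss (log2 change -0.83 ± 0.21) were among the lower.

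On the higher side, regulators of the primitive endoderm, the lineage that lines the yolk sac, had large changes. All 13 listed genes were tested, and 11 were higher and 1 lower (beside 13.2% and 7.64% of all genes), with a median of 4.25. Without EV replicate 3 none was lower, and the higher count was 8 to 11 over the alternatives. The lower gene was Lrp2 (-0.55 to -0.41 with 1 library left out). Among the higher genes the changes of Sall4, also in the core pluripotency list, and of Grb2 were small. With 1 library left out they were 0.17 to 0.33 for Sall4 and 0.26 to 0.35 for Grb2. Neither stayed called under every alternative. Gata6, which starts the lineage, had 68.1, 71.2 and 59.4 CPM in EV, against 2.25, 4.31 and 3.81 CPM in WT (log2 change 4.25 ± 0.26). Gata4 had 10.1, 14.5 and 13.4 CPM in EV, against 0, 1.08 and 0.449 CPM in WT (log2 change 4.54 ± 0.40). Sox17, a later endoderm factor, had 7.49, 8.36 and 8.38 CPM in EV, against 0, 0 and 1.12 CPM in WT (log2 change 4.35 ± 0.57). Foxa2, a pioneer factor of endoderm, had 7.25, 5.88 and 7.9 CPM in EV and no count in WT libraries, at least 31.7-fold higher. Foxq1, a forkhead factor, had 31.4, 33.9 and 31.1 CPM in EV, against 0, 0.431 and 0 CPM in WT (log2 change 7.53 ± 0.56). The receptor gene Pdgfra, which marks the lineage, had 24.6, 25.5 and 22 CPM in EV, against 0.45, 0 and 0 CPM in WT (log2 change 7.11 ± 0.42, adjusted p = 1.31e-14). Dab2, an endocytic adaptor expressed in it, had 24.3, 23.5 and 25.1 CPM in EV, against 1.8, 1.72 and 1.12 CPM in WT (log2 change 3.95 ± 0.29). None of these EV and WT values overlapped. Hnf4a, of the mature visceral endoderm, was not called (adjusted p = 0.0809).

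By day 4 fewer of these genes were called. On that day 1 of the 13 was higher in EV and 3 were lower, beside 9.62% higher and 8.2% lower among all genes. Gata6 had 126 ± 32.4 CPM in EV against 147 ± 24.2 CPM in WT on day 4 (SD, n = 3 each). Gata4 had 102 ± 13.5 CPM in EV against 78.4 ± 13.2 CPM in WT, and Foxa2 85.2 ± 10.8 CPM in EV against 66.6 ± 9.65 CPM in WT. None of these 3 was called. Dab2 was lower in EV on day 4, with 277 ± 14.5 CPM in EV against 610.1 ± 58.6 CPM in WT. The day 1 change was larger than the day 4 change for 10 of the 13 members, where the test called 5.48% of all genes more positive on day 1 and 3.08% more negative. Against day 0, 11 members were higher on day 1 within EV, with a median of 3.16, and 4 within WT, with a median of 0.55, values that share the day 1 libraries with the comparison of the lines. On day 0 itself 5 were higher and 0 lower in EV, with a median of 1.90, beside 16.8% higher and 12.4% lower among all genes.

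The extracellular products of the lineage were higher in part. Of 19 basement membrane and parietal endoderm genes, all tested, 11 were higher (57.9%) and 1 lower (5.26%), with a median of 1.35. Among all genes 13.2% were higher and 7.64% lower. Lamb1, a laminin chain, had 146, 142 and 167 CPM in EV, against 19.6, 19.6 and 22.9 CPM in WT (log2 change 2.87 ± 0.14, adjusted p = 7.02e-17). The collagen IV genes were higher too. Col4a1 had 67.6, 73.9 and 79.7 CPM in EV, against 24.5, 22.8 and 28.9 CPM in WT (log2 change 1.54 ± 0.12). Col4a2 had 17.6, 27.1 and 34.2 CPM in EV, against 11, 9.91 and 9.87 CPM in WT (log2 change 1.35 ± 0.19). Of genes for enzymes that modify collagen, the prolyl hydroxylase genes P4ha2 (log2 change 2.72 ± 0.32) and P4ha1 (log2 change 1.24 ± 0.15) and the lysyl hydroxylase gene Plod2 (log2 change 1.68 ± 0.15) were higher. Srgn, a proteoglycan core, changed by 4.81 ± 1.03 and Pth1r, the parathyroid hormone receptor of parietal endoderm, by 2.09 ± 0.43. Sparc, an abundant product of parietal endoderm, was not called, with 564, 622 and 701 CPM in EV, against 774, 691 and 749 CPM in WT. The nidogen genes Nid1 and Nid2, Lamc1 and Hspg2 were not called, and the collagen chaperone gene Serpinh1 was lower, with 39.3, 42.9 and 45.2 CPM in EV, against 71, 74.1 and 62.6 CPM in WT (log2 change -0.7 ± 0.16).

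Of 23 genes listed for the visceral endoderm, most of them for secreted and uptake proteins, 18 were tested. Of these 8 were higher (44.4%, beside 13.2% of all genes) and 0 lower, with a median of 1.48. The higher count was 6 to 7 with 1 library left out. It includes Tdh, which is also a member of the naive pluripotency list, and the homeobox gene Rhox5. Rhox5 was not called with RLE scaling, with DESeq2 or with centred chromosomes (0.089). Apoa2, an apolipoprotein, had 4.68, 6.1 and 8.14 CPM in EV and no count in WT libraries, at least 28.5-fold higher, and Afp, the fetal serum protein, had 3.51, 1.13 and 2.63 CPM in EV and none in WT, at least 10.9-fold higher. The uptake receptor genes Amn and Cubn, whose products form one complex, followed. Amn had 10.1, 11.8 and 8.86 CPM in EV, against 1.8, 0.215 and 2.47 CPM in WT (log2 change 2.77 ± 0.37). Cubn had 2.57, 1.81 and 2.63 CPM in EV, against 0, 0.215 and 0 CPM in WT (log2 change 4.55 ± 0.93). These levels were low, and the defining products Ttr and Apoa1 were at the floor. Apoa1 had 0, 0 and 0 CPM in EV, against 0.45, 0 and 0.224 CPM in WT. Ttr had 0.234, 0 and 0 CPM in EV, against 0, 0 and 0 CPM in WT.

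**Figure D4:**
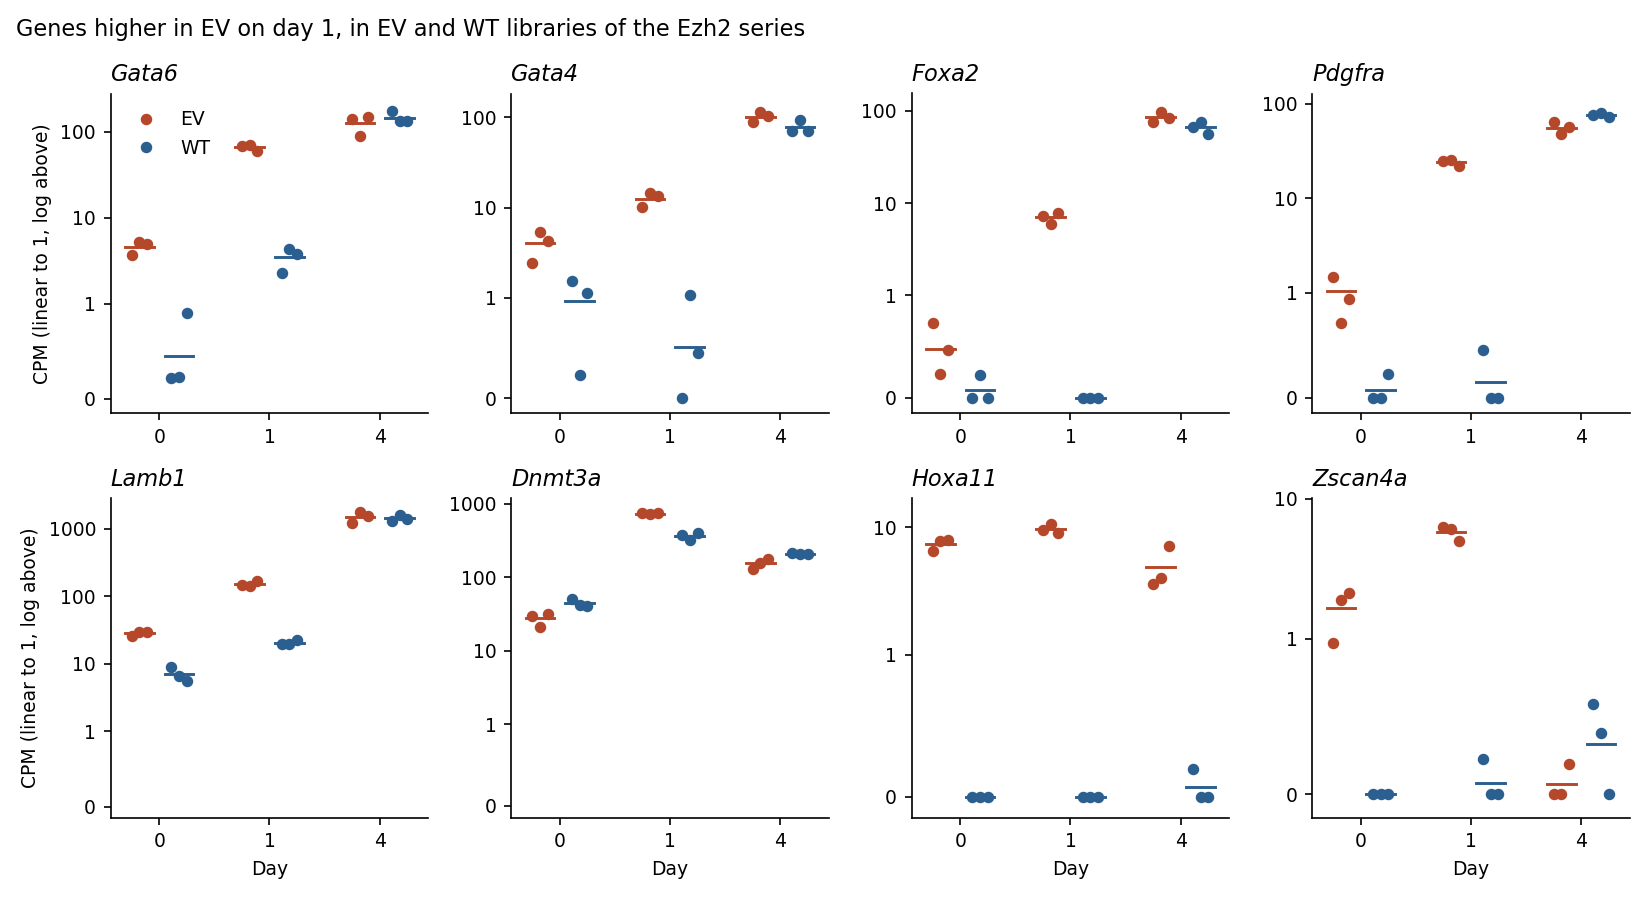
CPM of 8 genes higher in EV on day 1, in each EV (red) and WT (blue) library of the Ezh2 series by day, 1 point per library with a bar at the group mean, on an axis that is linear to 1 CPM and logarithmic above. Gata6, Gata4, Foxa2, Pdgfra and Lamb1 are apart on day 1 and close on day 4, Dnmt3a crosses over between day 0 and day 1, and Hoxa11 is counted in EV on every day.

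Genes of the 2-cell stage, a set switched on as the embryo's own genome starts and in rare stem cells, were higher in EV. Of 37 listed genes 36 matched the tables and 16 passed the filter. Of these 14 were higher (87.5%, beside 13.2% of all genes) and 0 lower. A member with almost no WT count passed the filter through other libraries and could not be called lower. The share and the 0 lower are thus partly set by the filter. The median of these 16 was 5.43, or 3.95 with genes that had no WT count set at their bound. With only the 6 compared libraries 11 were tested and 9 called higher. Gm20767 had 26.2, 19.9 and 25.4 CPM in EV, against 0.225, 0.646 and 0.224 CPM in WT (log2 change 5.91 ± 0.43). Gm21761 had 107, 103 and 99.6 CPM in EV, against 2.47, 3.02 and 1.57 CPM in WT (log2 change 5.43 ± 0.37). Zscan4a had 6.32, 6.1 and 5.03 CPM in EV, against 0.225, 0 and 0 CPM in WT (log2 change 5.86 ± 0.76). Zfp352 had no WT count and was at least 16-fold higher. The Zscan4, Usp17l and Gm copies share near-identical sequence, so the counting may have split or dropped their reads and single members are uncertain. Calcoco2, an autophagy receptor gene outside those families, had 222, 198 and 224 CPM in EV, against 115, 115 and 112 CPM in WT (log2 change 0.91 ± 0.12). Eif1a and Zfp809 were not called. On day 0, 15 of the 16 were higher in EV (beside 16.8% of all genes). On day 4, 1 was higher and 1 lower (beside 9.62% and 8.2% of all genes).

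Hox genes, classic PRC2 targets, were higher in part. Of 39 genes 31 were tested and 15 were higher (48.4%, beside 13.2% of all genes), 0 lower. The filter sets part of this too, since members with almost no WT count could not be called lower. The median was 2.06, or 1.93 with genes at their bound. With only the 6 compared libraries 11 were tested and 7 called. Hoxa11 had 9.59, 10.6 and 9.1 CPM in EV and no count in WT libraries, at least 44.1-fold higher, and Hoxd9 was at least 9.5-fold higher. Hoxa10 had 21.3, 23.9 and 23.5 CPM in EV, against 1.8, 3.88 and 3.59 CPM in WT (log2 change 2.88 ± 0.31). Hoxd11 had 6.08, 7.46 and 6.7 CPM in EV, against 0, 0.431 and 0 CPM in WT (log2 change 5.28 ± 0.68). Hoxd13 had 7.25, 7.23 and 5.03 CPM in EV, against 0, 0.215 and 0.449 CPM in WT (log2 change 4.72 ± 0.64). Hoxa9 changed by 4.9 ± 0.69 and Hoxd10 by 4.16 ± 1.01. Hoxb8 (4.46 to 4.73 with 1 library left out) and Hoxb1 (2.74 to 5.11) were called higher too, Hoxb1 not without EV replicate 1. Hoxb3, Hoxb9 and Hoxc4 were among those not called. The HoxA cluster lies on chromosome 6, whose median moved the other way. Hoxa11 already had 7.45 ± 0.767 CPM in EV and no count in WT on day 0.

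Of 85 other developmental transcription factors 56 were tested, and 26 were higher (46.4%, beside 13.2% of all genes) and 0 lower. Here as well, members with almost no WT count could not be called lower. The median was 1.67, or 1.38 at the bound. Over the alternatives 18 to 26 were higher and 0 to 2 lower, with 1 lower without EV replicate 1 or WT replicate 3. Olig2, of spinal cord progenitors, had 7.02, 8.59 and 6.94 CPM in EV and none in WT, at least 34-fold higher, and had 0.39 ± 0.345 CPM in EV against 0.271 ± 0.469 CPM in WT on day 4. Lhx1, of the anterior mesendoderm, had 4.68, 4.75 and 7.42 CPM in EV and none in WT, at least 25.4-fold higher. Meis1, a Hox cofactor, had 23.2, 23.3 and 19.15 CPM in EV, against 5.17, 10.1 and 5.38 CPM in WT (log2 change 1.66 ± 0.22). Lhx2 changed by 3.17 ± 0.55, Gata2 by 3.28 ± 0.71, Six3 by 2.89 ± 0.53 and Lhx9 by 2.8 ± 0.55.

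Genes of the formative and primed epiblast, which stem cells turn on as they leave the naive state, were higher in EV. All 16 listed were tested, 14 were higher (87.5%, beside 13.2% of all genes) and 0 lower, with a median of 1.00. The higher count was 11 to 13 with 1 library left out. On day 0, 9 were already higher and 1 lower (beside 16.8% and 12.4% of all genes), with a median of 0.84. The test of day 1 against day 0 called 2 more positive and 3 more negative on day 1 (beside 2.26% and 2.09% of all genes). Dnmt3b, a de novo DNA methyltransferase, had 696, 723 and 779 CPM in EV, against 316, 303 and 336 CPM in WT (log2 change 1.2 ± 0.09, adjusted p = 8.61e-12). Dnmt3a had 743, 716 and 746 CPM in EV, against 371, 324 and 401 CPM in WT (log2 change 1.01 ± 0.11). Fgf5, the usual marker of the state, had 8.42, 8.81 and 11.7 CPM in EV, against 3.37, 1.94 and 3.36 CPM in WT (log2 change 1.73 ± 0.30). Lef1, a Wnt effector, had 39.3, 32.1 and 36.9 CPM in EV, against 12.8, 11.8 and 11.2 CPM in WT (log2 change 1.59 ± 0.25). Car4, a carbonic anhydrase, had 21.8, 27.3 and 22 CPM in EV, against 6.52, 4.96 and 6.95 CPM in WT (log2 change 1.95 ± 0.20). Otx2, which drives the transition, had 146, 130.2 and 144 CPM in EV, against 100, 97.8 and 103 CPM in WT (log2 change 0.48 ± 0.12), the smallest of the named changes. Foxd3 and Tcf15 were not called. Both lines turned the list on: on day 1 its median stood 3.15 above day 0 in EV and 3.14 above in WT. Dnmt3a reversed, with 27.6 ± 5.66 CPM in EV against 43.9 ± 5.36 CPM in WT on day 0 (SD, n = 3 each; adjusted p = 0.000306), and was lower in EV again on day 4 (154 ± 24.5 CPM in EV, 208 ± 5.35 CPM in WT). The maintenance enzyme gene Dnmt1 had 186, 172 and 203 CPM in EV, against 197, 178 and 199 CPM in WT, which overlapped.

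The label of differentiated cell was checked against pluripotency genes, which were still counted in both lines on day 1. Sox2 had 759, 637 and 873 CPM in EV, against 859, 807 and 1070 CPM in WT. Pou5f1 had 45.2, 40.5 and 61.8 CPM in EV, against 61.1, 43.3 and 69.7 CPM in WT. Nanog had 216, 181 and 147 CPM in EV, against 164, 180.3 and 193 CPM in WT. The lines overlapped for all 3 and none was called. Of 14 core pluripotency genes 5 were called higher (35.7%, beside 13.2% of all genes). That count was 1 without EV replicate 1 or WT replicate 1, and 2 without EV replicate 2 or WT replicate 2. It was 3 without EV replicate 3 or WT replicate 3. Tdgf1, the Nodal co-receptor, had 552, 500.3 and 456 CPM in EV, against 321, 300.3 and 351 CPM in WT (log2 change 0.63 ± 0.13). The 25 naive genes split, 10 higher (40.0%) and 3 lower (12.0%, beside 7.64% of all genes), with a median of 0.02. There were 6 higher without EV replicate 1, and 6 lower with only the compared libraries. Klf2, a naive factor that MEK signalling destabilises, had 213, 197 and 186 CPM in EV, against 82.7, 86.4 and 98 CPM in WT (log2 change 1.16 ± 0.16), and Spic changed by 2.91 ± 0.47. Klf5 had 522, 675 and 525 CPM in EV, against 828, 924 and 721 CPM in WT (log2 change -0.52 ± 0.12), and Mras, a RAS family gene, changed by -1.01 ± 0.11. Esrrb and Zfp42 were not called. EV replicate 3 stood apart for the naive gene Dppa5a, which had 295, 363 and 56.7 CPM in EV, against 66.3, 112 and 35.9 CPM in WT.

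Germline genes, silenced in stem cells by PRC1.6 and DNA methylation, were higher in most cases. Of 46 listed 43 were tested, and 25 were higher (58.1%) and 3 lower (6.98%), with a median of 1.03. Among all genes 13.2% were higher and 7.64% lower. Sohlh2, a germ cell bHLH factor, had 22.9, 23.5 and 15.6 CPM in EV, against 2.92, 3.02 and 2.24 CPM in WT (log2 change 2.91 ± 0.40). Rhox13, an X-linked homeobox gene, had 26.7, 18.3 and 22 CPM in EV, against 2.02, 3.23 and 2.02 CPM in WT (log2 change 3.18 ± 0.38). Tex11, an X-linked meiosis gene, had 20.8, 24.9 and 28.7 CPM in EV, against 4.05, 3.66 and 6.5 CPM in WT (log2 change 2.38 ± 0.25). Tex19.1, a retrotransposon regulator, had 268, 283 and 236 CPM in EV, against 109, 113 and 87.2 CPM in WT (log2 change 1.35 ± 0.15). Dazl, an RNA-binding protein of germ cells, had 75.3, 57.4 and 46.2 CPM in EV, against 27.2, 34.7 and 30.9 CPM in WT (log2 change 0.95 ± 0.19). Tex14, of intercellular bridges, was lower, with 10.1, 8.14 and 11.5 CPM in EV, against 29.7, 27.4 and 29.8 CPM in WT (log2 change -1.55 ± 0.17), and so was Mei4 (log2 change -1.45 ± 0.36). Ddx4 and Sycp3 were not called. Promoters of this list held the E-box CACGTG in 14 of 42 genes (33.3%), against 11.9% of tested genes. These are the letters bound by the MGA-MAX arm of PRC1.6. The E2F-type letters GCGGGAA (or TTCCCGC), those of its E2F6 arm, were in 13 of 42 (31.0%), against 9.98%. Of the members called higher, 8 of 23 with a window (34.8%) held the E-box and 8 of 23 the E2F-type letters, near the shares of the whole list. Among all genes called higher the shares were 12.1% and 9.85%. Slc25a31, a germ cell adenine nucleotide carrier, had 7.72, 6.1 and 4.07 CPM in EV, against 0.899, 0.646 and 1.57 CPM in WT (log2 change 2.5 ± 0.42). Syce2, of the synaptonemal complex, had 71.4, 67.3 and 92.4 CPM in EV, against 44.1, 42.4 and 45.8 CPM in WT (log2 change 0.8 ± 0.14). Both hold the 2 motifs and are shown as examples with the E-box in capitals. The RefSeq windows of GRCm38.p6 are chr3:40708621-40708920 (plus strand) for Slc25a31 and chr8:84872008-84872307 (plus) for Syce2.
Slc25a31: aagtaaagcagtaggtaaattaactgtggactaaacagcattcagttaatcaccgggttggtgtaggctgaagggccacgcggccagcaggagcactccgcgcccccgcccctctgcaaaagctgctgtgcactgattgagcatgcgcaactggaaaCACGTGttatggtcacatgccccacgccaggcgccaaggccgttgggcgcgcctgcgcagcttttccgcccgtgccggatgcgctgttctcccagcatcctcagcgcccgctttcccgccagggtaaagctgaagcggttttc
Syce2: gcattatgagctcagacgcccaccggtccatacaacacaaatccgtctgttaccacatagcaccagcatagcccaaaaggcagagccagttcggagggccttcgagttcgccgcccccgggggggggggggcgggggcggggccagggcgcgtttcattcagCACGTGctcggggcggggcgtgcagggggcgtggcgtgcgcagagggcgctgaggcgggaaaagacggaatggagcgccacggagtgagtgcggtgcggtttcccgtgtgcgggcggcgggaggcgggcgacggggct

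Genes of several signalling pathways were called. Among all genes 13.2% were higher and 7.64% lower. For Nodal, which specifies mesendoderm, 12 of 20 listed genes were tested, and 6 were higher (50.0%) and 0 lower, with a median of 0.69. Lefty2, a feedback inhibitor of Nodal, had 185, 208 and 256 CPM in EV, against 63.8, 70.9 and 52.9 CPM in WT (log2 change 1.79 ± 0.19). Lefty1, a second such inhibitor, had 13.1, 12.4 and 16.8 CPM in EV, against 1.8, 3.02 and 1.79 CPM in WT (log2 change 2.66 ± 0.34). Of 22 tested Wnt feedback and target genes 9 were higher (40.9%) and 1 lower (4.55%). None was lower without EV replicate 2, EV replicate 3, WT replicate 1 or WT replicate 3. Axin2, the general Wnt feedback gene, had 20.8, 23.7 and 23 CPM in EV, against 5.39, 3.02 and 8.52 CPM in WT (log2 change 2.0 ± 0.27). Dkk1, a secreted Wnt inhibitor, had 7.02, 6.1 and 6.7 CPM in EV, against 0, 0 and 0.224 CPM in WT (log2 change 6.04 ± 0.58). Among 17 tested BMP and Id genes 7 were higher (41.2%) and 1 lower (5.88%), beside 3 higher of 8 tested with only the 6 compared libraries. Id2, an inhibitor of bHLH factors, had 332, 265 and 304 CPM in EV, against 68.6, 57.5 and 58.8 CPM in WT (log2 change 2.29 ± 0.13), and Bmp2 changed by 2.48 ± 0.52. Bmp4, made by epiblast and trophoblast, had 259.7, 272 and 180 CPM in EV, against 486, 548 and 590.2 CPM in WT (log2 change -1.19 ± 0.22). For FGF-ERK, 3 of 23 were higher and 2 lower, which is close to the share of all genes, and without EV replicate 3 these were 5 and 1. Fgf15 changed by 1.52 ± 0.30 and Etv4 by -0.86 ± 0.17.

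Genes of retinoic acid handling were higher in part. Of 12 tested genes for retinoid uptake, synthesis and breakdown 5 were higher (41.7%, beside 13.2% of all genes) and 0 lower, with a median of 1.01, and 3 were higher without EV replicate 1, WT replicate 2 or WT replicate 3. Cyp26a1, which degrades retinoic acid, had 9.36, 7.23 and 5.98 CPM in EV, against 1.8, 2.37 and 2.02 CPM in WT (log2 change 1.85 ± 0.45). Crabp2, which hands retinoic acid to its receptor, had 5.38, 2.49 and 3.11 CPM in EV, against 0.899, 0.862 and 0.449 CPM in WT (log2 change 2.27 ± 0.54). Of 23 receptor and target genes 6 were higher (26.1%) and 1 lower (4.35%, beside 7.64% of all genes), with a median of -0.03. Without WT replicate 1, 2 were lower. The receptor genes Rara, Rarb, Rarg and Rxra were not called, and Rxrg changed by 2.03 ± 0.48.

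Imprinted genes, some of which depend on PRC2 on the silent allele, went both ways. Of 41 tested 13 were higher (31.7%, beside 13.2% of all genes) and 7 lower (17.1%, beside 7.64%). The lower count was 4 without EV replicate 2 and 3 without EV replicate 3. H19, a maternal noncoding RNA, had 131, 161 and 186 CPM in EV, against 8.32, 7.75 and 9.87 CPM in WT (log2 change 4.2 ± 0.41). Cdkn1c, a maternally expressed inhibitor of cell cycle kinases, had 80.3, 64.9 and 66.1 CPM in EV, against 12.6, 12.5 and 11.4 CPM in WT (log2 change 2.53 ± 0.13). Phlda2, a placental growth inhibitor of the same domain, had 47, 49.5 and 45.7 CPM in EV, against 8.77, 7.75 and 10.8 CPM in WT (log2 change 2.38 ± 0.26). Sfmbt2, a paternally expressed gene of extraembryonic tissue, had 135, 124 and 159 CPM in EV, against 10.8, 10.3 and 11.7 CPM in WT (log2 change 3.67 ± 0.16). Alleles cannot be told apart in these tables. Of 21 tested trophectoderm genes 8 were higher (38.1%) and 5 lower (23.8%), with a median of 0.41. Tfap2c changed by 1.49 ± 0.17, Ascl2 by 1.47 ± 0.35, Tead4 by -1.07 ± 0.18 and Peg10 by -0.68 ± 0.09, and the trophectoderm regulator gene Eomes and the keratin genes Krt8 and Krt18 were not called.

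Among genes of growth control and metabolism, 8 of 23 p53 target genes were higher (34.8%) and 1 lower (4.35%). Without EV replicate 2 or EV replicate 3 none was lower. Among all genes 13.2% were higher and 7.64% lower. Plk2 changed by 1.5 ± 0.23, Sesn1 by 0.93 ± 0.19 and Ccng1 by 0.55 ± 0.12, while Cdkn1a and Mdm2 were not called. Of 17 cell cycle inhibitors and G1 cyclins 4 were higher (23.5%) and 3 lower (17.6%). The higher count was 2 without EV replicate 1 or WT replicate 1, and the lower count 1 without EV replicate 3. Ccnd1, a G1 cyclin, had 154, 125 and 109 CPM in EV, against 67.2, 64.6 and 62.1 CPM in WT (log2 change 1.0 ± 0.19). Cdkn1b, an inhibitor of cyclin-dependent kinases, had 48.9, 48.4 and 34 CPM in EV, against 109.9, 100.8 and 87 CPM in WT (log2 change -1.18 ± 0.15). In glycolysis 5 of 24 were higher (20.8%) and 3 lower (12.5%). The higher count was 3 without EV replicate 1, WT replicate 1 or WT replicate 2. The lower count was 5 with only the compared libraries. Fbp2, a gluconeogenic phosphatase, had 81.9, 80.2 and 66.5 CPM in EV, against 6.74, 6.46 and 7.18 CPM in WT (log2 change 3.48 ± 0.20). Hk2, the first enzyme of glycolysis, had 216, 219 and 213 CPM in EV, against 444, 438 and 438 CPM in WT (log2 change -1.02 ± 0.09). Of 28 interferon-stimulated genes 18 were tested and 4 were higher (22.2%), 0 lower (1 lower without WT replicate 2). Among the higher was B2m, the light chain of MHC class I. It had 18.9, 19.7 and 15.6 CPM in EV, against 2.7, 3.88 and 4.93 CPM in WT (log2 change 2.23 ± 0.25). Ubd, a ubiquitin-like modifier, had 9.13, 4.97 and 6.46 CPM in EV and none in WT, at least 30.9-fold higher. Pnp2, a purine phosphorylase, had 4.45, 5.42 and 6.22 CPM in EV and none in WT, at least 24.2-fold higher. Pnp2 has a near-identical neighbour, so its counts are uncertain.

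The Polycomb genes were called at shares near those of all genes or, for higher PRC1 genes, above them. Of the 6 PRC2 core genes only Ezh1, described above, was called, and of 8 tested accessory genes only Epop was, with 571, 574 and 616 CPM in EV, against 387, 382 and 469 CPM in WT (log2 change 0.51 ± 0.11). Of 23 PRC1 genes 5 were higher (21.7%, beside 13.2% of all genes) and 2 lower (8.7%, beside 7.64%; 1 lower without EV replicate 1, EV replicate 2 or WT replicate 1), with Bcor at 0.93 ± 0.16 and Yaf2 at 0.96 ± 0.19. Markers of other cell types were read beside these. Of 14 tested fibroblast and feeder markers 5 were higher (35.7%) and 0 lower (3 of 5 tested with only the 6 compared libraries). Their summed level was 450 to 471 CPM in EV and 351 to 395 CPM in WT. Vim, the intermediate filament of mesenchyme, made up much of it (256, 246 and 225 CPM in EV, against 137, 148 and 159.7 CPM in WT). The defining fibroblast gene Dcn had 2.57, 1.36 and 2.87 CPM in EV, against 0, 0.215 and 0.224 CPM in WT. Of 5 tested blood and endothelial markers 2 were higher (40.0%) and 1 lower (20.0%). Their sum was 98.0 to 118 CPM in EV and 128 to 151 CPM in WT. Of 11 tested neural markers 3 were higher (27.3%) and 2 lower (18.2%). Their sum was 433 to 510 CPM in EV and 391 to 430 CPM in WT. The neural count was 1 higher without EV replicate 1, EV replicate 2, WT replicate 1 or WT replicate 2, and 1 lower without EV replicate 2, EV replicate 3 or WT replicate 2. The part of such cells in the other results was not tested.

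The day 1 calls were compared as lists with those of the other days, which use other libraries. Among all genes 16.8% were higher and 12.4% lower on day 0, and 9.62% higher and 8.2% lower on day 4. Of the 1861 higher calls 1049 were also higher on day 0 (56.4% of the day 1 list, 44.2% of the day 0 list) and 23 were lower there. On day 4, 508 were also higher (27.3% of the day 1 list, 37.5% of the day 4 list) and 76 lower. Of the 1076 lower calls 571 were lower on day 0 (53.1% of the day 1 list, 32.6% of the day 0 list) and 392 on day 4 (36.4% of the day 1 list, 33.9% of the day 4 list). The other way, 18 of them were higher on day 0 and 58 on day 4. The EV effect differed between day 1 and day 0 for 613 genes (4.35%), or 407 without EV day 1 replicate 3, and between day 1 and day 4 for 1206 genes (8.56%). Ccnd2, a G1 cyclin, gave one of the sharpest differences, with 59.4 ± 8.89 CPM in EV against 3.67 ± 1.25 CPM in WT on day 0 (SD, n = 3 each), and 286, 248 and 288 CPM in EV, against 350.5, 312 and 319 CPM in WT on day 1, where it was not called.

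The Suz12 series holds the same design with another core subunit, so its EV and WT libraries of day 1 were fitted together with the Ezh2 series over all 54 libraries and 15371 genes. In that fit the Ezh2 series gave 3744 calls (24.4%) and the Suz12 series 471 (3.06%; 1.63% higher and 1.43% lower). The difference between the 2 effects was called for 2402 genes (15.6%; 8.69% more positive in the Ezh2 series and 6.94% more negative). Of the 251 genes higher in the Suz12 series 91 (36.3%) were among the 2060 higher in the Ezh2 series (4.42% of these), where 13.4% of all genes were higher, and 89 of those 2060 were lower in the Suz12 series. Of the 220 genes lower in the Suz12 series 29 (13.2%) were among the 1684 lower in the Ezh2 series (1.72% of these), where 11.0% of all genes were lower, and 31 of those 1684 were higher in the Suz12 series. Of the ATF4 list 2 were lower and 0 higher in the Suz12 series, with a median of -0.02, and the difference between the series was called for 40 members, all more negative in the Ezh2 series.

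In the Suz12 series, Trib3 had 4.64 ± 1.41 CPM in EV, against 6.71 ± 1.02 CPM in WT (SD, n = 3 each). Pck2 had 8.65 ± 0.75 CPM in EV, against 8.81 ± 1.84 CPM in WT, and Atf4 had 282 ± 15.6 CPM in EV, against 262 ± 45.7 CPM in WT. Asns had 80.1 ± 7.5 CPM in EV, against 94.5 ± 6.95 CPM in WT. In that series both lines lay below the WT libraries of the Ezh2 series for these 4 genes, and for Pck2 and Asns also below its EV libraries. Gata6 had 71.3 ± 3.58 CPM in EV, against 102 ± 9.06 CPM in WT. Pdgfra had 17.6 ± 1.64 CPM in EV, against 20.1 ± 2.53 CPM in WT, with Lamb1 at 340 ± 14.8 CPM in EV, against 428 ± 51.2 CPM in WT. Of the primitive endoderm list 0 were higher and 3 lower in the EV of that series, and of the 2-cell list 0 were higher and 9 lower, with a median of -1.47. Gm21761 had 31.1 ± 2.45 CPM in EV, against 102 ± 13.7 CPM in WT. H19 had 514 ± 8 CPM in EV, against 2537 ± 354 CPM in WT. Ezh1 had 18.6 ± 2.65 CPM in EV, against 18.5 ± 2.04 CPM in WT. The libraries of the Suz12 series held 6997715 to 7001555 reads and those of the Ezh2 series 7996693 to 8002940, and levels of the 2 series are set side by side only.

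**Figure D5:**
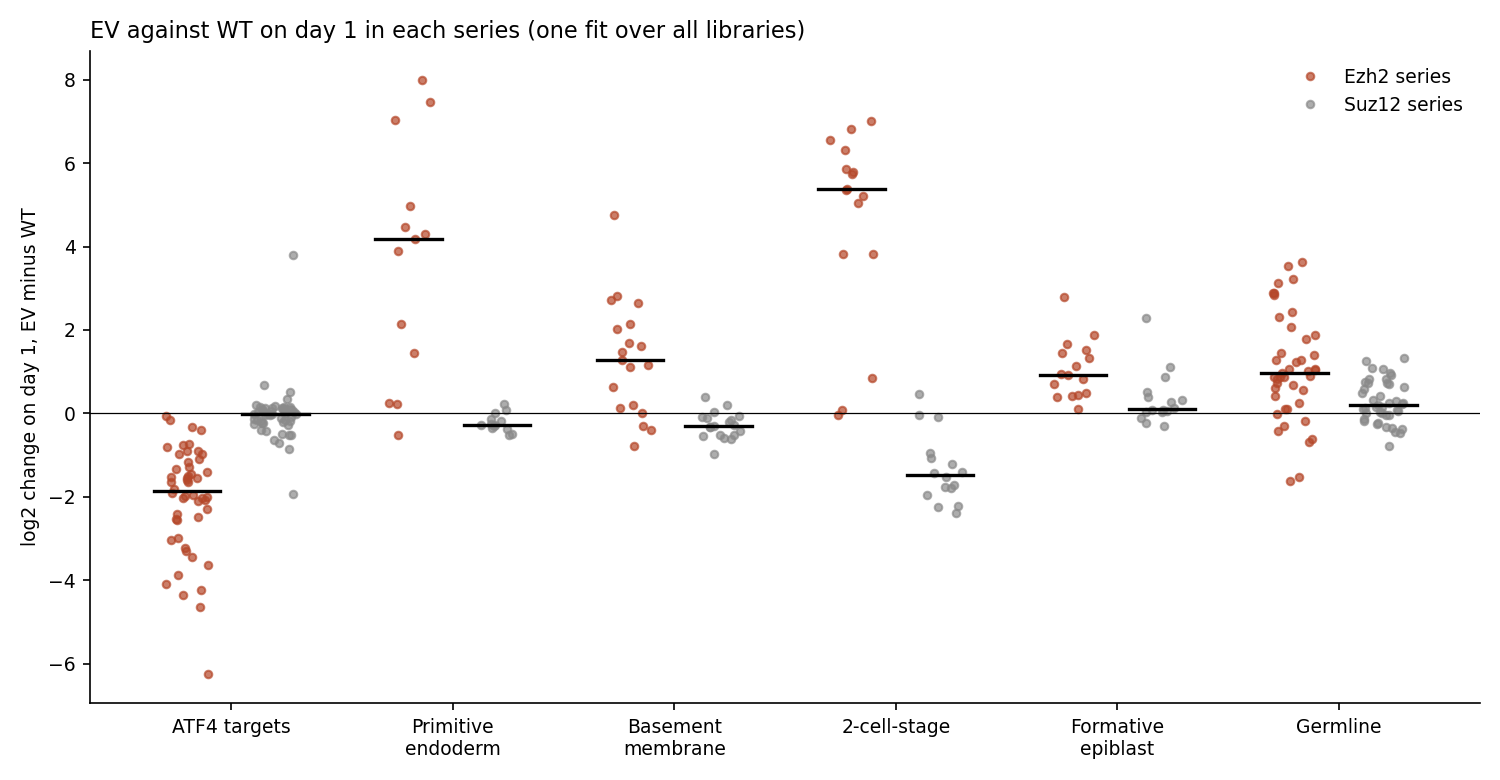
Log2 change on day 1, EV minus WT, of the tested members of 6 gene lists in the Ezh2 series (red) and the Suz12 series (grey), from 1 fit over 54 libraries, with a bar at each median. The ATF4 points lie below 0 in the Ezh2 series and about 0 in the Suz12 series, with a median of -0.02, and the 2-cell-stage points lie above 0 in the Ezh2 series and mostly below it in the Suz12 series, with a median of -1.47.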

How the data were processed

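Gene counts of QuantSeq 3′ libraries were taken as deposited, 1 table of whole-number counts per library, with build mm10 per the submitters' processing notes; the aligner, the counter and the gene annotation are not given in the sources used here. Rows for reads not assigned to a gene were left out; on day 1 they included 17.8% to 19.7% of reads with no feature and 19.4% to 20.8% not unique. The totals per table lay between 7996693 and 8002940 reads in all 27 libraries of the Ezh2 series, nearly equal. Of 55487 gene IDs, 55227 were matched to a symbol. The authors' deposited day 1 gene lists hold symbols without values.

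edgeR 4.0.16 (limma 3.58.1, R 4.3.3) was used: filterByExpr over the groups kept 14086 genes, counts were scaled by TMM, and glmQLFit with glmQLFTest tested EV minus WT per day and the differences between days over the 27 libraries of the Ezh2 series, which share 1 estimate of the spread. The filter keeps a gene that is counted well in 1 group alone. In any list a member without WT counts could therefore only be called higher. A fit over 54 libraries tested the difference between the series. P-values were adjusted by Benjamini-Hochberg over all genes of a fit. A prior count of 2 was used only for log2 CPM, in the check of replicate numbers and the offset per chromosome. The fitted changes used edgeR's default. The script was tested on simulated data. Alternatives were RLE scaling, no filter, DESeq2 1.42.0, only the compared libraries, the replicate number as a block, an offset per chromosome and leaving out each library. No pair of libraries held identical counts.

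The members and gene lists were chosen with earlier results of these data known. Genes were named by a rule: the 12 largest rises and 12 largest falls called, with libraries that do not overlap and at least 5 CPM in the higher group, up to 4 members per list by smallest adjusted p, and the 5 genes per direction for each difference. Other genes named were chosen after their values were seen. A few genes the rule named are not reported here. Intervals of error cover these libraries only, and floors cover counting error only, since tags carry no molecular identifiers here. Promoter windows are RefSeq's.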

Additional observations from a re-analysis of the deposited data

Results flagged for a closer look

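Each result here was picked out because the EV effect, the log2 change of EV minus WT, differed between 2 days or between the 2 series by a test of the difference itself. Up to 5 genes with the smallest adjusted p in each direction are given for each difference, after ± comes the standard error, and the adjusted p-values are edgeR's. No explanation was tested for any of them.

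Between day 1 and day 0 the difference was called for 4.35% of genes. The effect was more positive on day 1 for Klhl13, a substrate adaptor of a ubiquitin ligase (by 2.29 ± 0.22), Ap3b2, a neuronal vesicle adaptor (5.49 ± 0.53), Flrt3, a cell adhesion protein (2.97 ± 0.29), Dnmt3a (1.68 ± 0.18) and Adam23 (2.53 ± 0.28). The effect was more negative on day 1 for Pck2 (-3.03 ± 0.15), Ccnd2 (-4.26 ± 0.24), Nars (-2.01 ± 0.13), Trib3 (-3.20 ± 0.21) and Psat1 (-2.22 ± 0.17). Of those 5, 4 are members of the ATF4 list, and Ccnd2 was higher in EV on day 0 and not called on day 1. Klhl13 averaged 239 CPM in EV and 27.1 CPM in WT on day 1, beside 69.7 CPM in EV and 38.6 CPM in WT on day 0. Adam23 was lower in EV on both days, and its effect shrank: it averaged 63.4 CPM in EV and 87.0 CPM in WT on day 1, beside 3.59 CPM in EV and 28.6 CPM in WT on day 0. The adjusted p-values ran from 3.57e-15 for Pck2 to 1.09e-07 for Adam23.

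Between day 1 and day 4 it was called for 8.56% of genes. The effect was more positive on day 1 for Amot, a Hippo pathway scaffold (by 5.31 ± 0.30), Bcat1, a branched-chain amino acid transaminase (2.40 ± 0.15), Lamb1 (2.78 ± 0.18), Pdgfra (7.56 ± 0.48) and Id2 (2.65 ± 0.18). The effect was more negative on day 1 for Adgrd1, an adhesion receptor (-8.39 ± 0.51), Hbegf, a ligand of the EGF receptor (-2.55 ± 0.16), Ezh2 (-2.22 ± 0.16) and Myof, a membrane repair protein (-1.64 ± 0.13). Adgrd1 averaged 4.26 CPM in EV and 53.8 CPM in WT on day 1, beside 4.21 CPM in EV and 0.132 CPM in WT on day 4. For Lamb1, Pdgfra and Id2 the lines stood far apart on day 1 and close on day 4.

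Between the Ezh2 and the Suz12 series on day 1 it was called for 15.6% of genes. The effect was more positive in the Ezh2 series for Sfmbt2 (by 4.20 ± 0.20), Amot (4.95 ± 0.26), Lamb1 (3.13 ± 0.17), Cdkn1c (2.62 ± 0.15) and Gata6 (4.68 ± 0.26). The effect was more negative in the Ezh2 series for Mthfd2 (-2.73 ± 0.14), Nars (-1.98 ± 0.12), Pck2 (-3.61 ± 0.22), Gars (-2.09 ± 0.13) and Ddit4 (-2.62 ± 0.17), all of the ATF4 list. The adjusted p-values ran from 1.87e-25 for Sfmbt2 to 3.97e-20 for Ddit4.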

How the results depend on the processing

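The count of day 1 calls, 2937, was 2931 with RLE scaling, 2874 without the filter on low counts, 2910 with DESeq2, 2802 with chromosomes centred on their medians and 2961 with only the compared libraries, and 2188 to 2757 with 1 library left out. The count for day 1 against day 0, 613, was 407 to 541 with 1 library left out, the lowest without EV day 1 replicate 3. The count for day 1 against day 4, 1206, was 911 to 1137, and that for the Ezh2 against the Suz12 series, 2402, was 1878 to 2489. With the replicate number as a block there were 2953 day 1 calls, which held 98.0% of the main ones. Deviations of same-numbered EV and WT libraries from their group means correlated at -0.13, 0.32 and 0.24. Those of differently numbered ones correlated at -0.34 to 0.13. With 3 libraries in a group these values cannot decide whether the numbers pair the libraries. Of 351 named results past the threshold, 275 stayed past it with the same sign under every alternative. The signs that turned belong to genes that were not called. Slc38a2 (0.02) came to -0.011 with RLE scaling and with DESeq2, -0.047 without the filter, -0.0695 with centred chromosomes, -0.027 with only the compared libraries and -0.068 to 0.028 with 1 library left out. Slc7a3 and Eed turned sign with 1 library left out, over ranges of -0.26 to 0.061 and -0.054 to 0.15. The cause was not tested. No scaling moved the median of all genes by over 0.1 on the log2 scale. On simulated counts with these depths the test recovered 35.8%, 71.6% and 95.5% of genes changed 1.5-fold, 2-fold and 4-fold, so smaller changes than these may go uncalled. Those counts changed 67, 67 and 66 of 13519 genes, about as many up as down and none at the lowest levels. In the real libraries 20.9% of genes were called, so the recovery there may differ from these shares.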
